A study of Homo sapiens with 12 samples.

Results

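The genes described here are 8 members of the mismatch and base excision repair routes, MSH3, MSH6, PMS2, EXO1, UNG, APEX1, PARP1 and XRCC1, chosen by symbol from the 19225 entries of a table of RNA-seq read counts. All 8 had a row of their own and all 8 passed the filter on low counts. The libraries came from HN6 and HN30, a pair of established oral squamous cell carcinoma (OSCC) cell lines, transfected with a scrambled negative control siRNA (NC) or with one of 2 siRNAs against the atypical cadherin FAT1 (siFAT1-1 and siFAT1-2). The transfection reagent was Lipofectamine RNAiMAX, and RNA was taken 24 h later. Each of the 6 conditions, HN6 NC, HN6 siFAT1-1, HN6 siFAT1-2, HN30 NC, HN30 siFAT1-1 and HN30 siFAT1-2, was sequenced in 2 repeats made at separate times, which gave 12 libraries with totals of 26430049 to 47639010 counts. Each line is a single cell population, and every group, NC included, had passed through a transient transfection, with no untransfected cells among the libraries analysed here. Some labels call the knockdown reagents sh1 and sh2 and others call them siRNAs, and siRNA is the term kept here.

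Mismatch repair removes bases that the replication machinery paired wrongly. A MutS dimer, which holds MSH6 for single mismatches or MSH3 for longer loops, finds the error, a MutL dimer with PMS2 nicks the new strand, and the exonuclease EXO1 digests it back past the error before the gap is filled again. Base excision repair deals with damaged single bases. A glycosylase such as UNG, which takes out uracil, leaves a site without a base, the endonuclease APEX1 cuts there, PARP1 senses the break, and XRCC1, a scaffold without enzyme activity, gathers the ligase and polymerase that close it. Several of these proteins work at or near the replication fork, so their genes are often studied beside those of S phase.

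Promoter sequences were compared first, because E2F factors, which control many S phase genes, bind a short word that can be searched in the sequence. The words TTTCCCGC, TTTCGCGC, TTTGCCGC and TTTGGCGC were searched on both strands of RefSeq promoter windows of 300 bases on GRCh38.p14, 250 before to 50 after the start, and all 8 genes had a window. MSH3, MSH6, PMS2 and EXO1, the 4 mismatch repair genes, held a match, and UNG, APEX1, PARP1 and XRCC1, the 4 base excision genes, held none of these words in this window. Over 14483 genes of the table, 4.5% of such windows held one. On either strand, a GC box (GGGCGG) was present in 7 of the 8 windows against 62.3% of all, and a CCAAT box (CCAAT) in 5 of the 8 against 36.4%. The stretches from 120 bases before to 30 bases after the start of the canonical transcript follow on the gene's own strand of GRCh38, with the E2F-type words in capitals. EXO1 and MSH6 are given first because their counts varied most with the S phase genes, and PMS2 and MSH3 because they are the pair that differed most between the lines. The windows are chr1:241848084-241848233 (plus strand) for EXO1, chr2:47783025-47783174 (plus strand) for MSH6, chr7:6009020-6009169 (minus strand) for PMS2 and chr5:80654532-80654681 (plus strand) for MSH3.
EXO1: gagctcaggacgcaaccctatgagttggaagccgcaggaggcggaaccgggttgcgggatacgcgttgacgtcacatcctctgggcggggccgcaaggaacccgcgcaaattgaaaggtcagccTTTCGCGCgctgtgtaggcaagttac
MSH6: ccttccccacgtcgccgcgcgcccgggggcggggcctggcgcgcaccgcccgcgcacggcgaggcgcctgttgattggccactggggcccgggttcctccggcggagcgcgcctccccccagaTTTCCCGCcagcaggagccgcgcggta
PMS2: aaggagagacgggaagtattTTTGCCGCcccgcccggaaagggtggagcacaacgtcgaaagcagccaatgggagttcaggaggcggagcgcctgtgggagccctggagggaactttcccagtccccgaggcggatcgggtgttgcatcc
MSH3: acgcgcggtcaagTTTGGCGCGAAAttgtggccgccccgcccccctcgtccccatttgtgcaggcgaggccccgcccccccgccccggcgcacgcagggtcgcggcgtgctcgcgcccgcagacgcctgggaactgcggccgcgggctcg
In EXO1 and MSH6 the word lies just after the start, at bases 5 to 12 and 4 to 11. In PMS2 it lies upstream at bases -100 to -93, and in MSH3 there is a match on each strand, at -107 to -100 and -103 to -96, which overlap. A match of letters is a description of the sequence and not evidence that a factor binds there.

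In the GENCODE 44 annotation of GRCh38, the build to which the reads were mapped, EXO1 (ENSG00000174371) spans bases 241847967 to 241895148 of chromosome 1 and PARP1 (ENSG00000143799) bases 226360210 to 226408154 of the same chromosome. MSH6 (ENSG00000116062) lies on chromosome 2 from 47695530 to 47810063, MSH3 (ENSG00000113318) on chromosome 5 from 80654652 to 80876815, and PMS2 (ENSG00000122512) on chromosome 7 from 5970925 to 6009130. UNG (ENSG00000076248) lies on chromosome 12 from 109097597 to 109126725, APEX1 (ENSG00000100823) on chromosome 14 from 20455191 to 20457772, and XRCC1 (ENSG00000073050) on chromosome 19 from 43543311 to 43580473. PMS2 has 17 annotated pseudogene entries, none of which has a row in the table, so reads shared with near-identical copies make its counts uncertain. UNG and PARP1 have 2 such entries each, and the other 5 genes have 0.

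The target of the siRNAs was measured first. FAT1 (ENSG00000083857, chromosome 4, bases 186587794 to 186726722), a giant cadherin of the cell surface, stood at 56.8 and 66.7 CPM (counts scaled to the TMM-adjusted library size) in HN6 NC, 7.61 and 13.5 with siFAT1-1, and 13.2 and 21.4 with siFAT1-2. In HN30 it stood at 13.6 and 14.7 CPM in NC, 4.86 and 6.25 with siFAT1-1, and 10.8 and 7.75 with siFAT1-2. No knockdown library reached the lower of the NC libraries in its line. The remaining level was 17.1% and 28% of NC in HN6 for siFAT1-1 and siFAT1-2, and 39.2% and 65.4% in HN30. With edgeR's quasi-likelihood test, the log2 fold change for FAT1 knockdown against NC was -1.59 (SE 0.308, adjusted p = 0.0410). With the repeat as a block the adjusted p was 0.0783, and FAT1 also missed the threshold in 11 of the 12 fits that left out a library (adjusted p of 0.0527 to 0.1253), all but the one without HN30 siFAT1-2 repeat 1.

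Markers were read next. Of 10 squamous epithelial markers 9 had a mean of at least 1 CPM, and their summed level ran from 3415 to 9264 CPM, with the basement membrane gene LAMB3 the most abundant at 3154 CPM. With edgeR, 5 of the 10 squamous markers were called higher and 1 lower for siFAT1-1 against siFAT1-2, where 17.0% of all genes were called. For siFAT1-2 against NC 2 were called lower and 2 higher, where 11.6% of all genes were called. For siFAT1-1 against NC 0 were called lower and 2 higher, where 3.20% of all genes were called. In HN6 they summed to 7129 and 6839 CPM in NC, 9264 and 7608 with siFAT1-1, and 5594 and 4715 with siFAT1-2, and in HN30 to 6231 and 4012, 6419 and 6477, and 5534 and 3415 CPM. KRT14, a basal keratin, was near 0, at 0 counts in 5 of 6 HN30 libraries and at 0.222 to 2.42 CPM in HN6. Endothelial markers summed to 0.202 to 7.86 CPM, led by CDH5 at 1.79 CPM. Fibroblast markers summed to 12.5 to 164 CPM, led by the collagen COL1A1 at 57.2 CPM, and leukocyte markers to 24.4 to 124 CPM, led by CD68 at 54.0 CPM. Fibroblast markers summed to 12.5 and 21.9 CPM in HN30 NC and to 31.8 to 50.04 in the HN30 knockdown libraries, and endothelial markers were highest with siFAT1-1 in each line, at 6.63 and 7.86 CPM in HN6 and 3.40 and 2.90 in HN30. The part of these markers in the results was not tested. In bulk RNA of this kind, fewer cells that express a gene and less RNA per cell cannot be told apart.

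Per transcript length, the base excision genes APEX1, PARP1 and UNG had the highest mean levels, while XRCC1 stood below the mismatch gene MSH6 in all 6 conditions. In HN30 NC, APEX1 stood at 105 RPKM (CPM per kilobase of the canonical transcript, SD 5.92, n = 2), followed by PARP1 at 72.2 (SD 0.295), UNG at 42.2 (SD 22.6), MSH6 at 28.8 (SD 6.17) and XRCC1 at 15.3 (SD 0.0726). PMS2 stood at 11.8 RPKM (SD 1.00), EXO1 at 8.27 (SD 0.231) and MSH3 at 4.63 (SD 0.305). Of the neighbours in this order, only UNG and MSH6 overlapped between their libraries. In HN6 NC the order was the same except that EXO1, at 6.33 RPKM (SD 0.727, n = 2), stood above PMS2, at 3.73 (SD 0.487), and there PARP1 and UNG overlapped. EXO1 dropped to the last place in HN30 siFAT1-1, at 1.03 RPKM (SD 0.310), the one condition in which MSH3 was not the lowest of the 8.

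**Figure D1:**
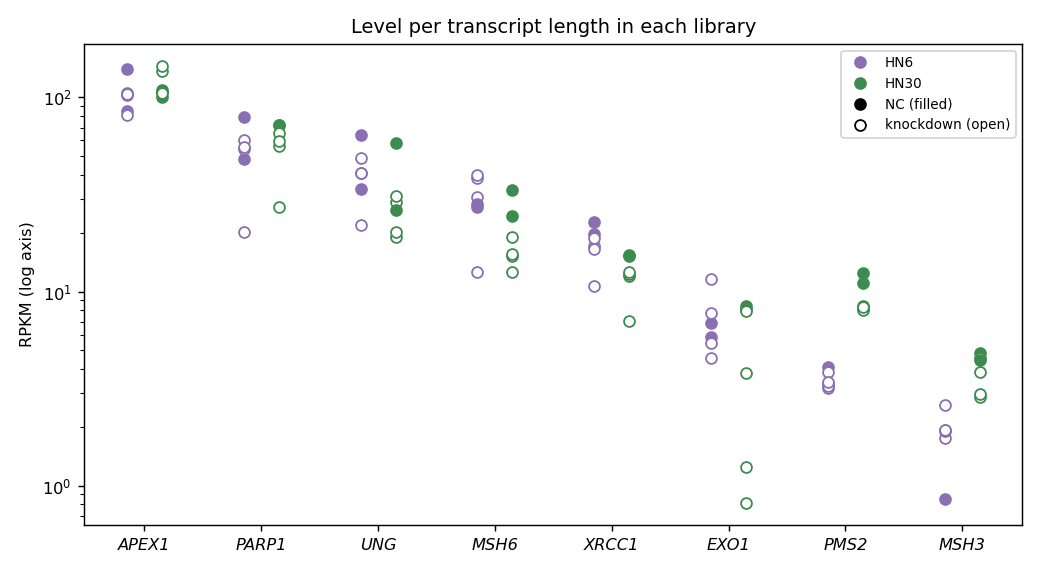
Level of the 8 genes in RPKM on a log axis, with a point for each of the 12 libraries, filled for NC and open for knockdown. APEX1 is highest and MSH3 or EXO1 lowest, and the HN6 and HN30 points are apart for PMS2 and MSH3.

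The mismatch repair genes PMS2 and MSH3 differed most between the lines. PMS2 ran from 16.3 to 20.7 CPM in the 6 HN6 libraries (median 17.3) and from 40.9 to 63.7 in the 6 HN30 libraries (median 42.5). MSH3 ran from 3.77 to 11.5 CPM in HN6 (median 8.55) and from 12.8 to 21.5 in HN30 (median 18.3). The lines did not overlap for these 2 genes, while they did for the other 6. At matched siRNA, the log2 fold change of HN30 against HN6 was 1.40 for PMS2 (SE 0.131, edgeR adjusted p = 3.33e-06) and 1.09 for MSH3 (SE 0.239, adjusted p = 0.00203). XRCC1 was called in the other direction, at -0.50 (SE 0.165, adjusted p = 0.0208), a call that was lost when HN6 siFAT1-2 repeat 2 was left out (adjusted p = 0.0520). Thus 3 of 8 genes were called, against 56.9% of the 14105 genes tested, and 2 of 8 were separate between the lines against 25.9% of genes, so neither share exceeded that of the table. MSH6, at -0.62, had an adjusted p of 0.0725, and UNG and EXO1, at -0.50 and -0.86, 0.122 and 0.140. DESeq2 called MSH6 for this comparison (adjusted p = 0.0482). Without HN6 siFAT1-2 repeat 1 or without HN30 NC repeat 1, MSH6 and UNG were called as well, which made 5 genes.

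The question of the series was what FAT1 knockdown does to the transcriptome of OSCC cells. Over both lines and both siRNAs, none of the 8 repair genes reached an adjusted p under 0.05, where 0.532% of all genes tested did. DESeq2 and limma-voom called 0 of the 8 as well. Of the 8, 6 had a negative log2 fold change, against 47.8% of all genes, and their median was -0.43 against 0.02. XRCC1 (-0.45, SE 0.197, adjusted p = 0.321) and PMS2 (-0.33, SE 0.145, adjusted p = 0.329) were lower at an unadjusted p under 0.05, a mark that 7.65% of genes passed on the lower side in this edgeR fit. EXO1 (-0.59), UNG (-0.57), PARP1 (-0.44) and MSH6 (-0.41) had larger SEs, of 0.525, 0.272, 0.283 and 0.286. APEX1 (0.02, SE 0.173) and MSH3 (0.06, SE 0.270) stood near 0.

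**Figure D2:**
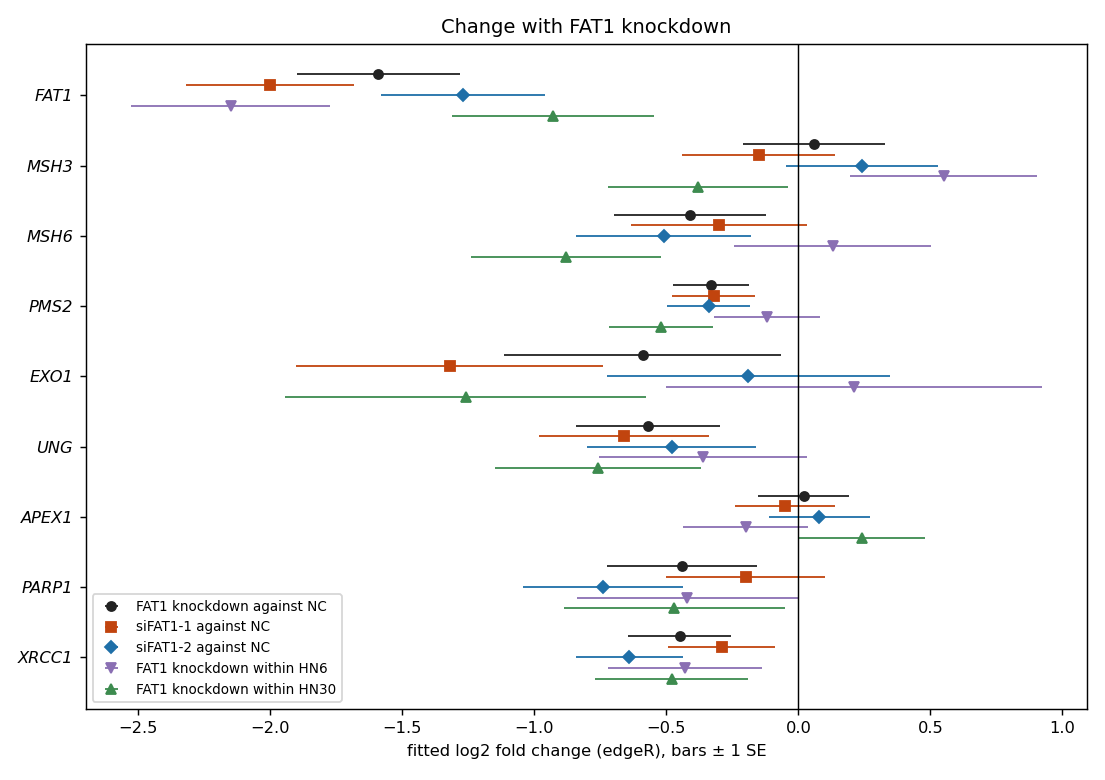
Fitted log2 fold change (points) with 1 SE (bars) of FAT1 and the 8 genes in 5 comparisons with NC. The points of FAT1, XRCC1, PMS2, UNG and PARP1 lie left of 0 in each. The bars of PMS2 and UNG within HN6 and of PARP1 with siFAT1-1 cross 0. EXO1 spans from -1.32 with siFAT1-1 to 0.21 within HN6, and APEX1 stays between -0.20 and 0.24.

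The lines differed in where the lower values lay, although this was not called. Within HN30, all 4 knockdown libraries lay below both NC libraries for 5 of the 8 genes, MSH6, PMS2, EXO1, PARP1 and XRCC1, against 11% of genes tested. Within HN6 this held for 1 gene, XRCC1, against 9.12% of genes. The median log2 fold change was -0.50 within HN30 and -0.16 within HN6, beside 0.03 and 0.00 for all genes. At an unadjusted p under 0.05, 2 genes (MSH6 and PMS2) were lower within HN30, against 4.47% of genes, and 0 within HN6, against 3.47%. After adjustment 0 of the 8 were called in HN6 (0.00% of all genes) and 0 in HN30 (0.0142%) with edgeR, and 0 with DESeq2 and limma-voom. The test of the difference itself, the interaction of line and knockdown, called 0 of the 8 and 0.00% of all genes with edgeR, 0 genes with DESeq2 and limma-voom, and 154 lower and 158 higher genes at an unadjusted p under 0.05. For the interaction MSH6 had a p of 0.0799 and MSH3 of 0.0807, both with an adjusted p of 0.9998.

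**Figure D3:**
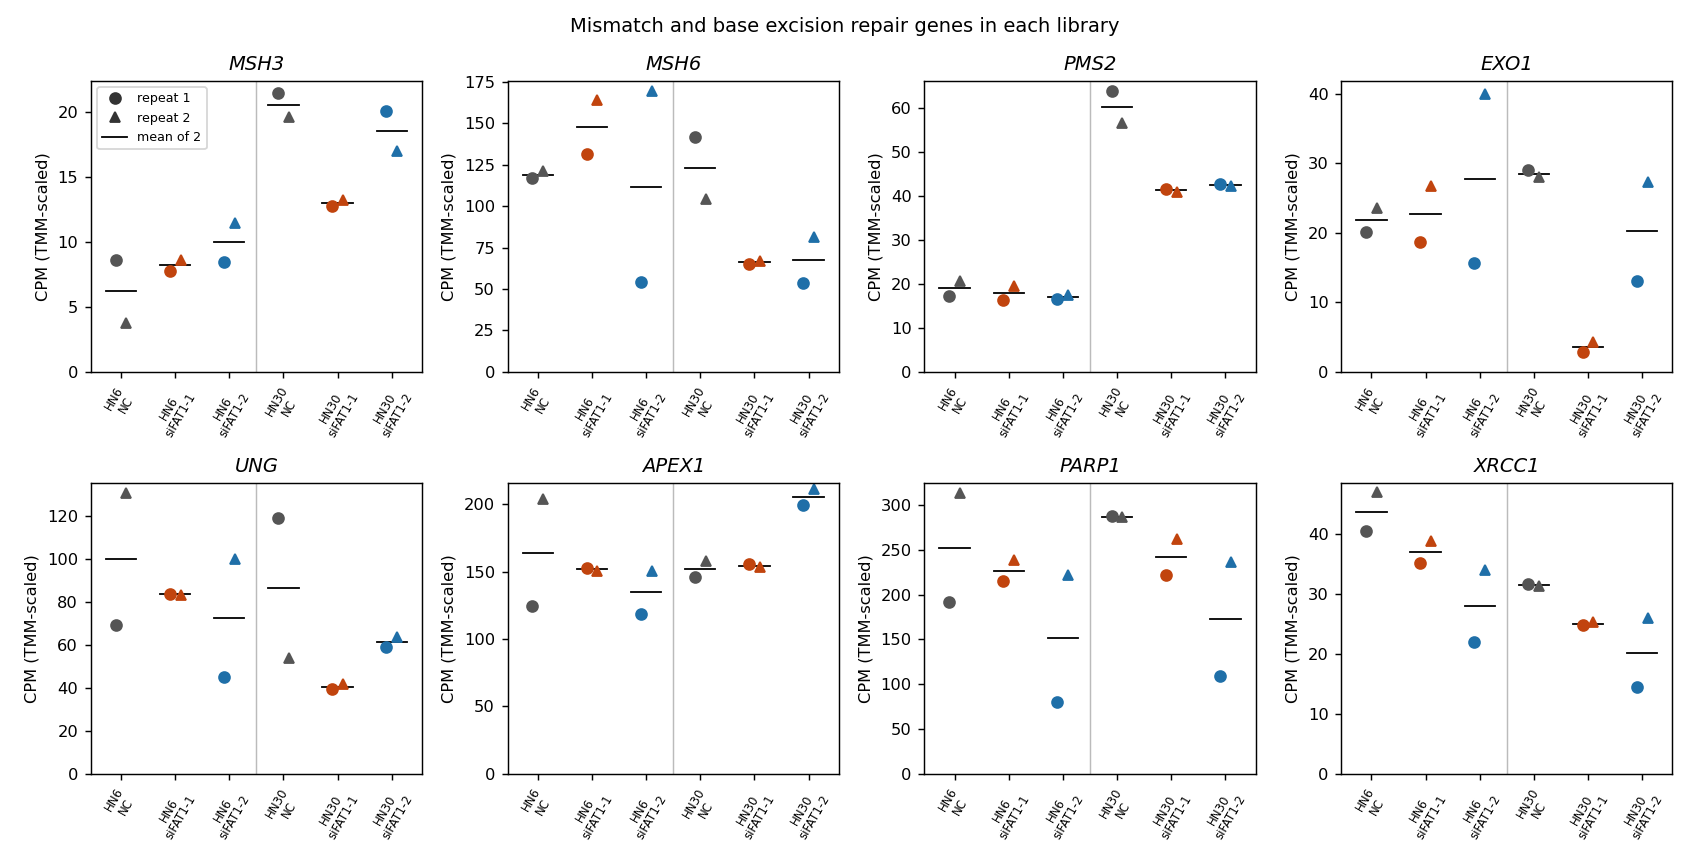
CPM of each gene in the 6 conditions, with circles for repeat 1, triangles for repeat 2 and a line for their mean. In HN30 the PMS2 points of all knockdown libraries sit between 40.9 and 42.7 CPM under NC at 56.5 and 63.7, and EXO1 sits at 2.80 and 4.31 with siFAT1-1 while siFAT1-2 repeat 2, at 27.4, reaches almost to NC.

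EXO1, the exonuclease that excises the strand with the error, carried the widest range. In HN30 its counts were 1028 and 1109 in NC, 75 and 140 with siFAT1-1, and 452 and 939 with siFAT1-2, which is 29.1 and 28 CPM, 2.80 and 4.31 CPM, and 13 and 27.4 CPM. In HN6 it stood at 20.1 and 23.6 CPM in NC, 18.7 and 26.8 with siFAT1-1, and 15.6 and 40.0 with siFAT1-2. Both HN30 siFAT1-1 libraries were thus far below all others, at 12.5% of NC on average, and the HN6 conditions overlapped. Over both lines siFAT1-1 against NC gave -1.32 (SE 0.582, edgeR adjusted p = 0.247), and siFAT1-2 gave -0.19 (SE 0.535, adjusted p = 0.843). A fit of the 6 conditions, added after these values were seen, gave -3.00 for siFAT1-1 within HN30 (SE 0.513, edgeR adjusted p = 0.0311), which was the only one of the 8 genes called there, against 1.42% of genes tested. The same fit gave -0.50 for siFAT1-2 in HN30 (SE 0.471, adjusted p = 0.647), 0.06 for siFAT1-1 in HN6 (SE 0.470, adjusted p = 0.999) and 0.35 for siFAT1-2 in HN6 (SE 0.471, adjusted p = 0.691). These contrasts share their NC libraries within a line.

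MSH6, the partner that recognises single mismatches, stood at 142 and 104 CPM in HN30 NC, 65.3 and 66.9 with siFAT1-1, and 53.8 and 81.2 with siFAT1-2. In HN6 it stood at 117 and 121 CPM in NC, 132 and 164 with siFAT1-1, and 54.0 and 170 with siFAT1-2. The 4 HN30 knockdown libraries were therefore all under NC, at 53.7% of NC for siFAT1-1 and 54.9% for siFAT1-2. In HN6 3 of the 4 knockdown libraries were above NC and one, siFAT1-2 repeat 1, was far below. The log2 fold change was -0.88 within HN30 (SE 0.361, edgeR adjusted p = 0.539) and 0.13 within HN6 (SE 0.372, adjusted p = 0.943).

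MSH3, the partner for longer loops, stood at 21.5 and 19.6 CPM in HN30 NC, 12.8 and 13.2 with siFAT1-1, and 20.1 and 17.0 with siFAT1-2. In HN6 it stood at 8.63 and 3.77 CPM in NC, 7.77 and 8.62 with siFAT1-1, and 8.48 and 11.5 with siFAT1-2. HN30 siFAT1-1 was at 63.2% of the NC mean, below both NC libraries, while in HN6 the NC repeats differed 2.29-fold from each other. The log2 fold change was -0.38 within HN30 (SE 0.339) and 0.55 within HN6 (SE 0.355), with edgeR adjusted p of 0.842 and 0.711. The overall value of 0.06 turned to -0.22 without HN6 NC repeat 2.

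PMS2, the nicking subunit, was the most even of the mismatch genes between repeats. In HN30 it stood at 63.7 and 56.5 CPM in NC, 41.6 and 40.9 with siFAT1-1, and 42.7 and 42.3 with siFAT1-2. In HN6 it stood at 17.2 and 20.7 CPM in NC, 16.3 and 19.6 with siFAT1-1, and 16.5 and 17.5 with siFAT1-2. The HN30 knockdown libraries were alike for both siRNAs, at 68.6% and 70.7% of NC, and the HN6 libraries overlapped with NC. Against the NC library of the same repeat, PMS2 was lower in 8 of 8 knockdown libraries, by a median of -0.33 on the log2 scale in repeat 1 and in repeat 2. Within HN30 the log2 fold change was -0.52 (SE 0.197, edgeR adjusted p = 0.520) and within HN6 -0.12 (SE 0.200, adjusted p = 0.882).

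XRCC1, the scaffold of base excision repair, was the one gene of the 8 for which every knockdown library lay below both NC libraries in both lines, a separation that 3.11% of genes tested shared. In HN6 it stood at 40.4 and 46.9 CPM in NC, 35.1 and 38.8 with siFAT1-1, and 22 and 34.0 with siFAT1-2. In HN30 it stood at 31.6 and 31.4 CPM in NC, 24.7 and 25.3 with siFAT1-1, and 14.4 and 25.9 with siFAT1-2. The lowest library of each line was siFAT1-2 repeat 1. The log2 fold change was -0.29 for siFAT1-1 (SE 0.202, edgeR adjusted p = 0.468) and -0.64 for siFAT1-2 (SE 0.203, adjusted p = 0.0598). The latter had an adjusted p of 0.0438 with the repeat as a block, 0.0213 with DESeq2 and 0.0369 with limma-voom, so its call depends on the model. Against the NC library of the same repeat the median difference was -0.61 in repeat 1 and -0.29 in repeat 2, lower in 4 of 4 each.

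PARP1, which senses strand breaks, stood at a higher level than XRCC1. Its knockdown libraries lay below both NC libraries in HN30 but overlapped with NC in HN6. In HN6 it stood at 192 and 314 CPM in NC, 215 and 239 with siFAT1-1, and 80.2 and 222 with siFAT1-2. In HN30 it stood at 288 and 287 CPM in NC, 223 and 262 with siFAT1-1, and 109 and 237 with siFAT1-2. As for XRCC1, siFAT1-2 repeat 1 was the lowest library of each line. The log2 fold change was -0.20 for siFAT1-1 (SE 0.300, edgeR adjusted p = 0.763) and -0.74 for siFAT1-2 (SE 0.302, adjusted p = 0.132), the latter with an adjusted p of 0.0443 with the repeat as a block. Against the NC library of the same repeat, the median was -0.81 in repeat 1 (lower in 3 of 4) and -0.33 in repeat 2 (lower in 4 of 4).

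UNG, the uracil glycosylase, was limited by its control libraries. It stood at 69.1 and 131 CPM in HN6 NC and at 119 and 53.7 in HN30 NC, so the NC repeats differed 1.90-fold and 2.22-fold. With siFAT1-1 it stood at 83.9 and 83.4 CPM in HN6 and at 39.3 and 41.6 in HN30, and with siFAT1-2 at 45.2 and 100 in HN6 and at 58.9 and 63.7 in HN30. The knockdown libraries overlapped with NC in both lines, although both HN30 siFAT1-1 libraries were below each NC library. The log2 fold change was -0.66 for siFAT1-1 (SE 0.322, edgeR adjusted p = 0.292) and -0.48 for siFAT1-2 (SE 0.319, adjusted p = 0.346).

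APEX1, the endonuclease of base-free sites, had the smallest change among the 8 over both lines. It stood at 124 and 204 CPM in HN6 NC, 153 and 150 with siFAT1-1, and 118 and 151 with siFAT1-2. In HN30 it stood at 146 and 158 CPM in NC, 156 and 153 with siFAT1-1, and 199 and 211 with siFAT1-2. HN30 siFAT1-2 was above NC in both repeats, at 135% of NC, and the other groups overlapped. The log2 fold change was -0.05 for siFAT1-1 (SE 0.190, edgeR adjusted p = 0.915) and 0.08 for siFAT1-2 (SE 0.191, adjusted p = 0.807).

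Counted by siRNA with edgeR without a block, 0 of the 8 genes were called for siFAT1-1, where 3.20% of all genes were, and 0 for siFAT1-2, where 11.6% were. For siFAT1-2, DESeq2 and limma-voom each called 1 of the 8, XRCC1, where they called 19.1% and 13.5% of all genes, and edgeR with the repeat as a block called XRCC1 and PARP1, where it called 11.2%. At an unadjusted p under 0.05, 1 gene (EXO1) was lower with siFAT1-1 against 10.1% of all genes, and 2 (PARP1 and XRCC1) were lower with siFAT1-2 against 15.8%. The members' medians were -0.29 and -0.41 beside 0.00 for all genes with each siRNA, and these comparisons share the NC libraries. The direct test of siFAT1-1 against siFAT1-2 called 0 of the 8, against 17.0% of genes, with 0 at an unadjusted p under 0.05, and DESeq2 and limma-voom called 0 as well. The largest difference between the siRNAs was that of EXO1, at -1.13 (SE 0.561, edgeR adjusted p = 0.178), followed by PARP1 at 0.54 (SE 0.301, adjusted p = 0.233).

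An index of S phase was set beside these values. It is the mean log2 CPM over 35 genes of a common S phase list, with the repair genes taken out, relative to the NC mean of the line, and RRM2, a subunit of ribonucleotide reductase, is its most abundant gene at 255 CPM. In HN30 the index was 0.11 and -0.11 in NC, -1.98 and -1.55 with siFAT1-1, and -1.27 and -0.40 with siFAT1-2. In HN6 it was 0.07 and -0.07 in NC, -0.16 and 0.12 with siFAT1-1, and -0.78 and 0.73 with siFAT1-2. The HN30 knockdown libraries were thus all below NC, and in HN6 the siFAT1-2 repeats lay on either side of it. A G2/M index of 52 genes, led by the tubulin TUBB4B at 735 CPM, was -0.31 and 0.31 in HN30 NC, -1.12 and -0.97 with siFAT1-1, and -1.60 and -0.25 with siFAT1-2. In HN6 it was 0.25 and -0.25 in NC, -0.13 and 0.14 with siFAT1-1, and -0.90 and 1.03 with siFAT1-2. HN30 siFAT1-2 repeat 2 lay between the NC libraries on the G2/M index, and the other 3 HN30 knockdown libraries lay below them.

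The S phase list from which the index was taken also holds EXO1 and UNG, which were left out of the index, and holds none of the other 6 genes. A relation of these 2 genes with the index is therefore partly fixed by that choice and is given as a description, with no test. Over 12 libraries, with each line centred on its own mean, EXO1 had a Pearson's r of 0.926 and a Spearman's rho of 0.937, with an r of 0.880 without the 2 libraries farthest from the median, 0.929 within HN6 and 0.950 within HN30. UNG had an r of 0.725 and a rho of 0.699, with 0.548 without those 2 libraries. The other 6 genes were tested by two-sided permutation within lines, with Benjamini-Hochberg adjustment over all 8. EXO1 and UNG count in that adjustment and lower the adjusted p of some of the others, and an adjustment over the 6 was not run. MSH6 had an r of 0.811 (unadjusted p = 0.00147, adjusted p = 0.00588) and a rho of 0.853 (unadjusted p = 0.0008, adjusted p = 0.0032). Without those 2 libraries MSH6 had an r of 0.812. Within the lines its r was 0.883 in HN6 and 0.847 in HN30, with adjusted p of 0.0833 and 0.0815, which do not pass. PMS2 had an r of 0.684 (unadjusted p = 0.0424, adjusted p = 0.0848) with a rho of 0.727 (unadjusted p = 0.0165, adjusted p = 0.0331). Its r was 0.51 without those 2 libraries, 0.813 within HN30 (adjusted p = 0.0815) and 0.245 within HN6 (adjusted p = 0.593). XRCC1, MSH3, PARP1 and APEX1 had r of 0.522, 0.492, 0.486 and 0.126, with adjusted p of 0.110, 0.110, 0.110 and 0.690. Without those 2 libraries their r was 0.564, 0.344, 0.555 and 0.239. The 12 libraries are pairs of repeats of 6 conditions, which share line and siRNA, so they are not fully independent, and whether the share of cells in S phase accounts for any of these values was not tested.

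**Figure D4:**
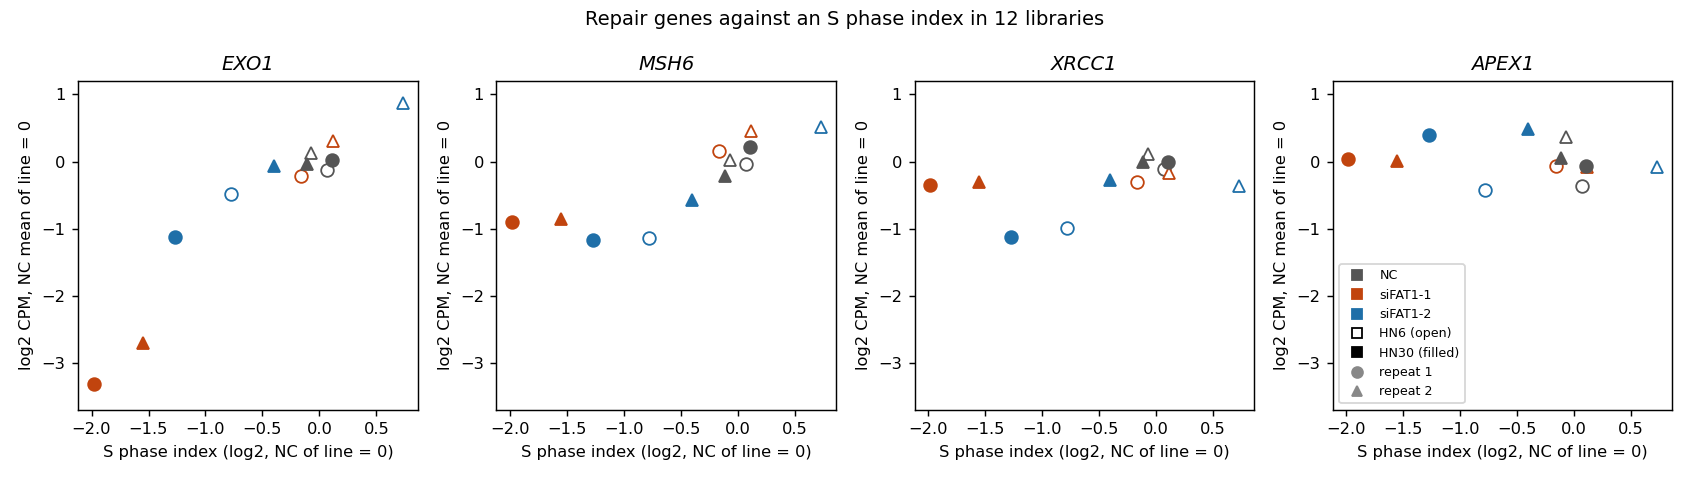
Log2 CPM of 4 genes relative to the NC mean of the line, on the vertical axis, against the S phase index, on the horizontal axis, for 12 libraries (open for HN6, filled for HN30, circles and triangles for the repeats). EXO1 and MSH6 rise with the index (r = 0.926 and 0.811), XRCC1 is lowest in the siFAT1-2 repeat 1 library of each line, which in HN30 is not the library with the lowest index, and APEX1 shows no slope (r = 0.126).

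The other genes of both routes were read from lists by step. Of 17 genes of excision and resynthesis, which mismatch repair and long patch base excision share with replication (PCNA, its loader RFC, the single-strand binder RPA, the polymerases delta and epsilon, FEN1 and LIG1), 15 were negative for FAT1 knockdown against NC with a median of -0.63. With edgeR 8 were lower and 1 higher at an unadjusted p under 0.05, and 0 were called after adjustment. For this comparison 47.8% of all genes tested were negative, 7.65% were lower and 6.74% higher at that unadjusted p, and 0.532% were called, which is the background for each of these lists. LIG1, the ligase that joins replicated strands, had -1.14 (SE 0.347, adjusted p = 0.160) and FEN1, the flap nuclease, -1.02 (SE 0.323, adjusted p = 0.177). LIG1 stood at 80.7 and 65.7 CPM in HN30 NC against 17.6 and 22.2 with siFAT1-1 and 20.1 and 46.6 with siFAT1-2. FEN1 stood at 157 and 125 CPM in HN30 NC against 26.5 and 36.5 with siFAT1-1 and 51.9 and 107 with siFAT1-2. In HN6, LIG1 stood at 86.0 and 128 CPM in NC, 74.8 and 81.3 with siFAT1-1, and 20.0 and 68.5 with siFAT1-2, and FEN1 at 231 and 310, 199 and 181, and 98.8 and 201 CPM. All knockdown libraries of both lines were under both NC libraries for LIG1 and FEN1, as for XRCC1, a separation that 3.11% of genes tested shared. Among the other repair genes this also held for MPG, APEX2 and TDP1, and PARG was above both NC libraries in the same way. POLD2, the most abundant of the list and a subunit of polymerase delta, had -0.52 (SE 0.257, adjusted p = 0.379). E2F-type words were found in 4 of 14 promoter windows of this list (RFC3, LIG1, POLE and POLE2). They were found in 0 of 2 windows of the other mismatch genes, 0 of 8 of the other glycosylases, 0 of 8 of the other genes of base-free sites and breaks and 0 of 2 of short patch repair.

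Among 10 other DNA glycosylases the median was -0.24, with 7 negative, 2 lower at an unadjusted p under 0.05 and 0 called, beside the same background of 47.8% negative and 7.65% lower. These were MPG, which removes alkylated bases, and NTHL1, which removes oxidised pyrimidines, at -1.0 (SE 0.358, edgeR adjusted p = 0.229) and -0.41 (SE 0.188, adjusted p = 0.345). MPG stood at 46.0 and 42.7 CPM in HN6 NC, 36.5 and 31.1 with siFAT1-1, and 8.53 and 13.9 with siFAT1-2. In HN30 it stood at 66.2 and 48.7 CPM in NC, 41.2 and 37.4 with siFAT1-1, and 18.8 and 15.4 with siFAT1-2. The siFAT1-2 libraries were lowest in each line, and MPG fell with siFAT1-2 by 1.86 on the log2 scale (SE 0.197, edgeR adjusted p = 0.000707). In that comparison 11.6% of all genes were called. With siFAT1-1 MPG was also below both NC libraries of the line, at -0.47 (SE 0.191, edgeR adjusted p = 0.211). TDG, the thymine glycosylase and most abundant of the list, had 0.26 (SE 0.233, adjusted p = 0.640).

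Of 9 other genes that process base-free sites and breaks, 7 were negative with a median of -0.22, 2 were lower and 1 was higher at an unadjusted p under 0.05, and 0 were called with edgeR, beside 47.8% negative, 7.65% lower and 6.74% higher among all genes. APEX2, a relative of APEX1 and the most abundant of this list, had -0.45 (SE 0.149, edgeR adjusted p = 0.199), and PARG, which removes the chains that PARP1 makes, had 0.66 (SE 0.209, adjusted p = 0.179). DESeq2 called PARG for this comparison (0.68, adjusted p = 0.0251). PARG was higher with siFAT1-2 in each library. It stood at 22.2 and 21.3 CPM against 13.6 and 8.99 in HN6 NC. For HN30 the values were 13.5 and 11.3 CPM against 6.34 and 8.27 in NC. PARG rose by 0.86 with this siRNA (SE 0.195, edgeR adjusted p = 0.0179), a comparison in which 11.6% of all genes were called. That call was lost without HN30 NC repeat 1 (adjusted p = 0.0579). With siFAT1-1 PARG was also above both NC libraries of the line, at 15.7 and 15.4 CPM in HN6 and 10.65 and 8.63 in HN30. The log2 fold change for siFAT1-1 was 0.43 (SE 0.194, edgeR adjusted p = 0.256). The 3 genes of short patch gap filling and ligation had a median of 0.10, with LIG3, the partner ligase of XRCC1, at -0.39 (SE 0.256, adjusted p = 0.506) and the polymerase POLL, the most abundant, at 0.15 (SE 0.221, adjusted p = 0.792). The 4 other genes of mismatch recognition and nicking had a median of 0.05 with 0 past an unadjusted p under 0.05, among them MLH3 at 0.50 (SE 0.426, adjusted p = 0.618). For comparison, the S phase index genes had a median of -0.60 with 34 of 35 negative, and within HN30 -1.22 with 35 of 35 negative and 20 lower at an unadjusted p under 0.05, beside 46.5% negative and 4.47% lower among all genes. Within HN6 their median was 0.08 with 16 of 35 negative and 0 lower at that p, beside 49.4% and 3.47%, and edgeR called 0 of the 35 after adjustment in each of these comparisons.

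**Figure D5:**
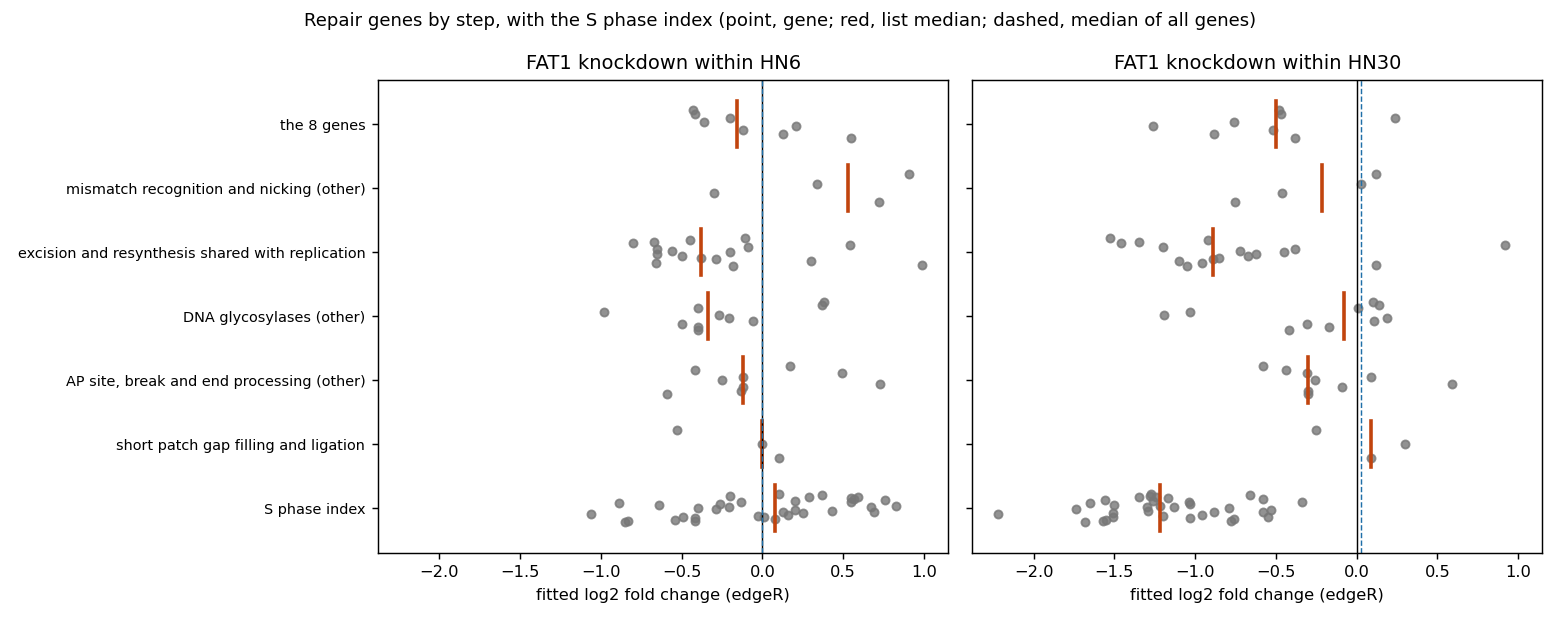
Fitted log2 fold change of each gene (grey points) in 6 lists of repair genes and the S phase index, with the list median (red) and the median of all genes tested (dashed blue), within HN6 (left) and HN30 (right). The list shared with replication has a median of -0.38 in HN6 and -0.89 in HN30, and the S phase index 0.08 and -1.22.

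Genes that lie beside a member were compared because the counting is not stated to use strand, so reads of overlapping genes cannot be told apart. AIMP2, a component of the tRNA synthetase complex, starts 206 bases from PMS2. It was higher in HN30 by 1.14 (SE 0.141, adjusted p = 3.17e-05), as was PMS2 by 1.40, and stood at -0.07 for FAT1 knockdown (SE 0.158, adjusted p = 0.869). OSGEP, a tRNA modification enzyme that starts 137 bases from APEX1, had a log2 fold change of -0.87 in HN30 against HN6 (SE 0.166, adjusted p = 0.000772), where APEX1 had 0.17. FBXO11, which overlaps MSH6 by 20748 bases on the other strand, stood at 50.2 and 53.1 CPM in HN30 NC, 53.3 and 50.4 with siFAT1-1, and 28.3 and 29.0 with siFAT1-2. With siFAT1-2 it was thus at 55.5% of NC in HN30, where MSH6 was at 54.9%, and with siFAT1-1 at 100.3%, where MSH6 was at 53.7%. Over both lines FBXO11 had -0.53 for siFAT1-2 (SE 0.197, adjusted p = 0.104). ACACB and PINLYP, which overlap UNG and XRCC1, were at most 6.68 and 1.02 CPM in any library.

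The genes whose pattern was most like that of each member were read from Pearson's r of log2 CPM, centred on each line, over 12 libraries and 11480 genes with a mean log2 CPM of at least 1. This is a description without a test, since the points share line, siRNA and repeat. For EXO1 they were DSCC1 (r = 0.989), a gene of the S phase index that helps load PCNA, C4orf46 (0.972) and POLE2 (0.968), a subunit of polymerase epsilon. For XRCC1 they were NUDT1 (0.989), which clears oxidised nucleotides, TK1 (0.978), the thymidine kinase, and TCFL5 (0.977). For PARP1 they were GPATCH1 (0.979), PSMA1 (0.977) and CKS1B (0.975), and for UNG DCTPP1 (0.948), TOR3A (0.937) and TEX2 (0.927). For MSH6 they were DCK (0.923), FAM129A (0.922) and ZNF551 (0.919), for MSH3 SPCS3 (0.959), SLC26A2 (0.955) and USP46 (0.944), for PMS2 FZD1 (0.920), TFDP2 (0.896) and H2AFV (0.890), and for APEX1 QTRT1 (0.962), TUT1 (0.941) and NLE1 (0.934). Between the members themselves, PARP1 and XRCC1 were the most alike pair (r = 0.95), followed by MSH6 with PARP1 (0.80) and with XRCC1 (0.77).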

How the data were processed

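Poly(A) RNA of HN6 and HN30 was sequenced in 12 libraries. The authors removed reads with poly-N, duplicated reads and reads of low quality, and deposited raw read counts per gene. The submitters' processing notes name HISAT2, featureCounts and hg38, without versions. The annotation used for counting and the use of strand are not given in the sources used here. Of 19225 rows, 2112 had no count and 27 carried a date in place of a symbol. Columns left out numbered 0.

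Counts were scaled by TMM (factors 0.897 to 1.06) and filtered (filterByExpr, minimum count 10), which left 14105 genes. Tests used edgeR 4.0.16 (glmQLFit, glmQLFTest) with cell line as a term and Benjamini-Hochberg adjustment over all genes. SEs were derived from the fold change and the F statistic. limma 3.58.1 and DESeq2 1.42.0 gave alternatives in R 4.3.3. Python 3.11.15 did the rest. Log2 CPM used a prior count of 2. Repeats carried more error than depth, and the common dispersion in the design of FAT1 knockdown against NC was 0.14. P-values measure the spread left over by the terms of each fit. That spread holds the difference between the 2 repeats, which the study's methods call biological. It also holds differences between the siRNAs, or between the lines in their response, where a fit has no term for them. Only the fit of the 6 conditions rests on the spread between repeats alone.

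The steps were tested on simulated counts. Repeat numbers mark a separate time in the labels and so pair libraries within a line. Deviations of same-numbered libraries correlated at 0.0747, 0.217 and 0.233 in HN6 and -0.0293, 0.401 and -0.0203 in HN30.

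The 8 genes and the lists were chosen with earlier results of these data known. Named genes were FAT1, the 8, per other repair list the 2 with the smallest p and the most abundant, per member the 3 of highest likeness, its neighbours, and per marker or index list the most abundant. Not every gene of that rule is reported here. Others named (PMS1, RPA2, PARP3, APTX, KRT14, RFC3, POLE, TDP1) were chosen after their values were seen. The fit of the 6 conditions was added after seeing the data. The alternatives were DESeq2 size factors, no filter on low counts, DESeq2, limma-voom, a replicate block, no cell line term and each library left out.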

Additional observations from a re-analysis of the deposited data

Results flagged for a closer look

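Among the 43 repair genes outside the 8, 5 (11.6%) differed between the siRNAs in the direct edgeR test of siFAT1-1 against siFAT1-2 at an adjusted p under 0.05, a share below the 17.0% of all genes tested. MPG was higher with siFAT1-1 than with siFAT1-2 by 1.39 on the log2 scale (adjusted p = 0.00142). PMS1, a MutL subunit, was at -1.14 (adjusted p = 0.0122) and APTX, which repairs blocked DNA ends, was at -1.0 (adjusted p = 0.00726). RPA2, a single-strand binding subunit, was at -0.57 (adjusted p = 0.0448), and PARP3, a relative of PARP1, at 0.71 (adjusted p = 0.0278). Over the 18 settings run, the adjusted p reached at most 0.00794 for MPG, 0.0498 for PMS1 and 0.0383 for APTX, and up to 0.152 for RPA2 and 0.0986 for PARP3, whose calls were lost when any of several single libraries was left out. The call of RPA2 was also lost without the filter on low counts and with the replicate block (adjusted p = 0.0643). None of the 8 genes passed this test.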

How the results depend on the processing

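Among 1400 comparisons of a value with an alternative, 1276 kept direction and side of the threshold or stayed within 1.5 times. Genes called for FAT1 knockdown numbered 75, but 639 with DESeq2, 44 with the replicate block, 4 without a cell line term and 4 to 60 when 1 library was left out (4 without HN30 NC repeat 1). For siFAT1-1 the 452 became 1208 with DESeq2 and 113 to 666 leaving out 1 library, and for siFAT1-2 the 1635 became 2696 and 678 to 1674. For siFAT1-1 against siFAT1-2 the 2400 became 994 to 3333. Within HN6, DESeq2 called 106 and leaving out 1 library 0 to 300. Within HN30 the 2 became 169 with DESeq2, 1 with limma-voom, 0 with the replicate block and 0 to 3 leaving out 1 library. Of the 8 genes, the number called with siFAT1-2 was 0 but 1 with DESeq2 (XRCC1), 1 with limma-voom (XRCC1), 2 with the replicate block (XRCC1 and PARP1) and 0 to 1 leaving out 1 library, and for HN30 against HN6 it was 3, but 2 to 5. In the fit of the 6 conditions, chosen after seeing the data, siFAT1-1 called 12 genes in HN6 and 200 in HN30, with 1 of the 8 and a median of -0.60 there, and siFAT1-2 called 74 and 20. In that fit signs turned with siFAT1-1 for MSH3 (0.40), MSH6 (0.31) and EXO1 (0.059) in HN6 and APEX1 (0.023) in HN30, and with siFAT1-2 for EXO1 (0.35) and APEX1 (-0.29) in HN6 and MSH3 (-0.15) in HN30. MSH3 for FAT1 knockdown was -0.11 without a cell line term and -0.22 to 0.19 leaving out 1 library. Other signs that turned on leaving out 1 library were those of APEX1 for FAT1 knockdown (-0.066 to 0.23), siFAT1-1 (-0.14 to 0.16) and siFAT1-2 (-0.02 to 0.28), of MSH3 (-0.04 to 0.37) and EXO1 (-0.58 to 0.037) for siFAT1-2, and of PARP1 for HN30 against HN6 (-0.021 to 0.36). The causes were not tested. Beyond the calls given here and for FAT1 and RPA2, the replicate block changed no call of the genes named. No block was fitted for HN30 against HN6. Repeats differed by more than counting error (chi-square of 14.2 to 235 per degree of freedom), and no alternative varied the depth.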
